A study of Mus musculus with 8 samples.

Results

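The genes that write, keep, remove and guard DNA methylation were compared between 2-cell mouse embryos that lack Dux and wild type embryos. They are Dppa3, Dnmt1, Dnmt3a, Dnmt3b, Dnmt3l, Uhrf1, Tet3, Zfp57 and Trim28, matched by symbol, and make up 9 of the 13101 genes in the deposited table. All 9 passed the filter on low values (a mean of at least 0.5 FPKM, fragments per kilobase of transcript scaled by a size factor for each library), which left 12434 genes.

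RNA with a poly(A) tail was sequenced from 8 pools of embryos collected after timed matings, 4 from Dux knockout embryos (Dux KO) and 4 from wild type embryos (WT), pool numbers being the replicate numbers of the labels. The DUX protein is a homeodomain transcription factor present in the early 2-cell stage. All pools were of the C57BL/6 background and held 12 to 18 embryos each. By its title, the study addressed whether zygotic genome activation needs Dux. The labels give neither the making of the knockout allele, nor the genotype of the mothers, nor whether different matings supplied the pools, so the p-values rest on a spread between pools that may be technical.

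DNA methylation is written at unmethylated CpG sites by DNMT3A and DNMT3B with the cofactor DNMT3L, and copied after replication by DNMT1, which UHRF1 brings to hemimethylated sites. After fertilisation much of the genome loses methylation, and TET3 oxidises methylcytosine, mainly on the paternal genome. DPPA3, also called STELLA or PGC7, guards the maternal genome, and ZFP57 with its corepressor TRIM28 guards methylated imprinting control regions. Most of these proteins reach the embryo as maternal RNA or protein from the oocyte.

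Depth was even, with 12343369 to 14548526 gene reads per pool. The size factors that divide the values were 1.030 to 1.163 in Dux KO pools and 0.891 to 1.027 in WT pools. Summed over all genes, FPKM came to 377779 to 425287 in Dux KO pools and 434070 to 488076 in WT pools, without overlap. The cause of this difference was not tested. No pool was a copy of another (a chi-square of 13.8 to 117 for each degree of freedom between pools of 1 group). Of 12 symbols listed for oocyte and 2-cell markers 11 were in the table, and the other, H1f8, is a second name of H1foo, which was there. The summed level of these markers was 1883 to 4785 FPKM in Dux KO pools and 1220 to 1849 FPKM in WT pools. Most of that sum was Oosp1 (1368 to 4008 FPKM in Dux KO pools and 728 to 1264 FPKM in WT pools), and over the 11 markers the median log2 fold change was -0.024, with 2 called higher and 2 lower. None of 8 sperm markers and 1 of 8 blood markers were in the table. Cumulus and granulosa markers (6 of 12 in the table) summed to 8.71 to 85.3 FPKM in Dux KO pools and 1.69 to 16.3 FPKM in WT pools, the highest being Dux KO replicate 2, and oviduct markers (3 of 6) to 4.21 to 32.4 and 3.33 to 11.6 FPKM. Of the 6 cumulus and granulosa markers, whose median log2 fold change was 0.77, Cyp19a1 was called higher, at 0.701 to 1.45 FPKM in Dux KO pools and 0.220 to 0.573 FPKM in WT pools (log2 fold change 0.53, limma adjusted p = 0.0167), and its part in the results was not tested. The Dux transcript itself was not analysed here.

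Of the 9 genes, Dppa3 fell in Dux KO embryos and the other 8 did not pass (limma on log2(FPKM + 1), adjusted p under 0.05 over all genes tested). That is 11.1% of the members, where 33.6% of all genes tested were called, 18.1% lower and 15.5% higher. No member was called higher by limma, at an adjusted or an unadjusted p under 0.05, while edgeR and DESeq2 on recovered reads each called 1, Tet3. Of all genes edgeR called 17.4% higher and 17.5% lower, and DESeq2 39.6%, 19.7% higher and 19.8% lower. The median log2 fold change of the 9 genes was -0.19, beside -0.025 over all genes tested. Among the more abundant genes, those averaging 5 FPKM or more, the median was itself lower, at -0.18. Dppa3, Zfp57, Dnmt3l and Trim28 belong to that class, with -0.61, -0.19, 0.14 and -0.35. The cause of that shift was not tested. Pools of the groups did not overlap for Dppa3 and Dnmt3a, 22.2% of the members, where 33.1% of all genes did not overlap.

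**Figure D1:**
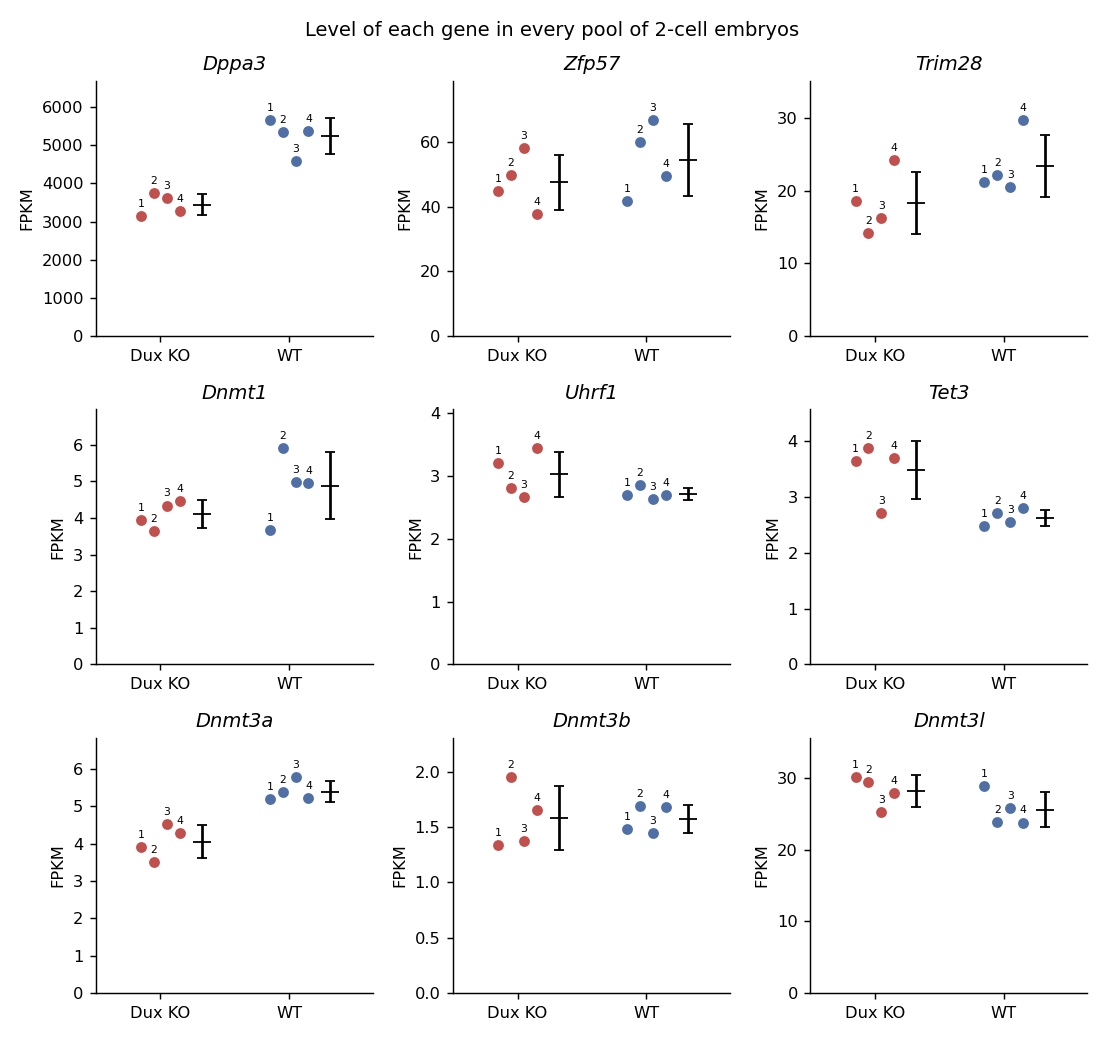
Level in FPKM (vertical axis, from 0) of each gene in the 4 Dux KO pools (red, left) and the 4 WT pools (blue, right), numbered by replicate, with the mean and SD of each group in black. All Dux KO pools lie below all WT pools for Dppa3 and Dnmt3a, and Tet3 is above the WT pools in 3 of 4 Dux KO pools.

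Dppa3 encodes the maternal protector that keeps methylcytosine of the maternal genome from TET3. It lies on chromosome 6 at 122626410 to 122630272 (GRCm38, plus strand). Its level was 3158, 3747, 3610 and 3264 FPKM in Dux KO pools 1 to 4, and 5665, 5348, 4576 and 5387 FPKM in WT pools 1 to 4. Every Dux KO pool was below every WT pool, and WT replicate 3 was the WT pool nearest to them. Dppa3 fell by 34.3% in mean level, to 3445 ± 279 FPKM in Dux KO pools, against 5244 ± 467 FPKM in WT pools (SD, n = 4 each). The log2 fold change was -0.61 (SE 0.148, 95% interval -0.93 to -0.28, limma adjusted p = 0.0123). A two-sided exact permutation test over the 35 distinct splits gave p = 0.0286, which no result with 4 pools a group can go below. In bulk samples fewer embryos with the transcript and less of it per embryo cannot be told apart.

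Dppa3 was among the most abundant transcripts of every pool. It ranked 10 to 12 of all genes in Dux KO pools and 7 to 10 in WT pools. As a share of recovered gene reads, free of the authors' scaling, it stood at 3143, 3613, 3501 and 3045 reads per 1000000 gene reads in Dux KO pools 1 to 4, and 5032, 4855, 3711 and 4580 in WT pools 1 to 4. The groups stayed apart on this scale, with means of 3325 ± 274 in Dux KO pools and 4544 ± 586 in WT pools (SD), but Dux KO replicate 2 and WT replicate 3 came close. With quantile normalization, which gives all libraries 1 distribution, the call of Dppa3 ended (log2 fold change -0.34, limma adjusted p = 0.110). It was kept in the other 19 alternatives. Without Dux KO replicate 2, the pool with the most granulosa marker RNA, it was -0.65 (limma adjusted p = 0.00737).

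A processed copy of Dppa3 was counted as well. Dppa3-ps, on chromosome X at 37625647 to 37626097 (GRCm38, minus strand), matches the Dppa3 transcript over 451 bases at 98.2% identity, so reads can be assigned to either. It was at 16.5, 21.4, 18.7 and 17.5 FPKM in Dux KO pools 1 to 4, and 31.6, 31.0, 20.6 and 32.5 FPKM in WT pools 1 to 4. WT replicate 3 lay among the Dux KO pools, so the groups overlapped. Dppa3-ps was called lower with a fold close to that of Dppa3 (log2 fold change -0.60, limma adjusted p = 0.0232). Its 108 to 152 reads per Dux KO pool and 112 to 194 per WT pool are few beside the 40570 to 52557 and 49167 to 66270 reads of Dppa3.

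TET3 is the dioxygenase that oxidises methylcytosine after fertilisation, mainly on the paternal genome. Tet3 lies on chromosome 6 at 83362373 to 83459084 (minus strand). It was at 3.65, 3.87, 2.72 and 3.71 FPKM in Dux KO pools 1 to 4, and 2.49, 2.71, 2.55 and 2.80 FPKM in WT pools 1 to 4. Dux KO replicate 3 lay within the WT range and the other 3 Dux KO pools lay above it. The means were 3.49 ± 0.521 FPKM in Dux KO pools and 2.63 ± 0.144 FPKM in WT pools, the log2 fold change being 0.30 with a 95% interval of -0.034 to 0.63. It did not pass by limma (adjusted p = 0.143), and the exact two-sided permutation test gave p = 0.0571. On recovered reads Tet3 passed, by edgeR with a log2 fold change of 0.45 (adjusted p = 0.0484) and by DESeq2 with 0.45 (adjusted p = 0.0306). In reads per 1000000 gene reads the pools did not overlap, at 68.0, 69.9, 49.4 and 64.7 in Dux KO pools 1 to 4 and 41.3, 46.0, 38.6 and 44.5 in WT pools 1 to 4. In the authors' deposited table it had a log2 fold change of 0.40 and an adjusted p-value of 0.0792.

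Among the writers of new methylation, Dnmt3a had groups of pools that did not overlap. It lies on chromosome 12 at 3806007 to 3914443 (plus strand). Its level was 3.91, 3.51, 4.54 and 4.27 FPKM in Dux KO pools 1 to 4, and 5.21, 5.38, 5.79 and 5.22 FPKM in WT pools 1 to 4. All 4 Dux KO pools were below all 4 WT pools, with means of 4.06 ± 0.447 and 5.40 ± 0.274 FPKM. It did not pass over all genes by limma (log2 fold change -0.34, 95% interval -0.66 to -0.023, adjusted p = 0.0879) nor by edgeR on recovered reads (adjusted p = 0.0585), although the exact permutation p was 0.0286 (two-sided, unadjusted). DESeq2 on recovered reads gave an adjusted p of 0.0360, and the authors' deposited table gave a log2 fold change of -0.41 with an adjusted p-value of 0.0412. Exons of an antisense gene, Dnmt3aos, share 133 bases with Dnmt3a, and reads of either strand there cannot be told apart without strand.

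DNMT3B, the other writer, was the least abundant of the 9 in RNA. Dnmt3b (chromosome 2 at 153649450 to 153687730, plus strand) was at 1.34, 1.96, 1.37 and 1.66 FPKM in Dux KO pools 1 to 4, and 1.48, 1.69, 1.45 and 1.68 FPKM in WT pools 1 to 4. The Dux KO pools held both the lowest and the highest value. These rest on 99 to 157 reads per Dux KO pool and 89 to 120 per WT pool. The log2 fold change was -0.0022 (95% interval -0.31 to 0.30, limma adjusted p = 0.991), and its sign differed between alternatives.

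DNMT3L has no catalytic activity of its own and stimulates DNMT3A, with which it works in the growing oocyte. Dnmt3l (chromosome 10 at 78041947 to 78063622, plus strand) was at 30.2, 29.5, 25.2 and 27.9 FPKM in Dux KO pools 1 to 4, and 28.9, 23.9, 25.9 and 23.8 FPKM in WT pools 1 to 4. The groups overlapped through WT replicate 1 and Dux KO replicate 3. Means were 28.2 ± 2.20 FPKM in Dux KO pools and 25.6 ± 2.40 FPKM in WT pools (log2 fold change 0.14, 95% interval -0.17 to 0.44, limma adjusted p = 0.453). An exon of Aire on the opposite strand overlaps it over 67 bases.

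The promoters of Dnmt3a and Dnmt3l are shown because the ratio of these partners set the groups apart, though narrowly, as given further on. Their CpG content also differs widely. Both are RefSeq windows (GRCm38.p6, plus strand) of 250 bases before and 50 after the most upstream start listed for the gene, at chr12:3806730-3807029 and chr10:78042037-78042336, written 5′ to 3′ with each CpG in capitals.
Dnmt3a: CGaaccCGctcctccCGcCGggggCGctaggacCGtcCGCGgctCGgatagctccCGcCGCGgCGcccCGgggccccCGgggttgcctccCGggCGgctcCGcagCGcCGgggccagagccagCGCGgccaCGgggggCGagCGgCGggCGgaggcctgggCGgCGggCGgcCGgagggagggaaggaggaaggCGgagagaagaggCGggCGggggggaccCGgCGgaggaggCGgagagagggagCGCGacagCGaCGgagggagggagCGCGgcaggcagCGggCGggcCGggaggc
Dnmt3l: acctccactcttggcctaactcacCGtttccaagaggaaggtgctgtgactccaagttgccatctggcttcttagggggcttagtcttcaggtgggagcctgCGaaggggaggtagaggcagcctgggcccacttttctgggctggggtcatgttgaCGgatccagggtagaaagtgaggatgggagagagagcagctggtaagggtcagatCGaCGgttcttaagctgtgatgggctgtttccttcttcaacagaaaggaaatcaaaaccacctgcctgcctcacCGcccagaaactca
The Dnmt3a window holds 46 CpG sites, more than 98.4% of 32851 promoter windows, and the Dnmt3l window holds 6, more than 43.6% of them. The median window holds 7. At the other starts listed, the windows of Dnmt3a hold 47 and 18 sites and those of Dnmt3l 4 and 3. Which start was in use in these embryos was not tested.

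RefSeq windows were found for 8 of the 9 genes, Dppa3 being without one, and for several starts of some genes, making 17 windows. A loose form of the core motif of DUX was searched on both strands. It matched in 0 of the 17 windows and in 0.971% of all windows, which says only that its letters are not in these 300 bases. CpG sites numbered 2 to 47 per member window, lowest at 1 of 3 listed starts of Dnmt1 (2 sites, against 12 and 33 at the others). The gene table does not tell apart the starts of a gene, such as that of the oocyte form of Dnmt1.

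DNMT1 and UHRF1 copy methylation at replication. Dnmt1 (chromosome 9 at 20907209 to 20959888, minus strand) was at 3.96, 3.66, 4.34 and 4.48 FPKM in Dux KO pools 1 to 4, and 3.68, 5.90, 4.997 and 4.95 FPKM in WT pools 1 to 4. WT replicate 1 lay among the Dux KO pools and the other 3 WT pools above them all. Means were 4.11 ± 0.373 FPKM in Dux KO pools and 4.88 ± 0.912 FPKM in WT pools (log2 fold change -0.19, 95% interval -0.55 to 0.17, limma adjusted p = 0.372).

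Uhrf1 (chromosome 17 at 56303321 to 56323486, plus strand) was at 3.20, 2.81, 2.66 and 3.44 FPKM in Dux KO pools 1 to 4, and 2.69, 2.86, 2.63 and 2.69 FPKM in WT pools 1 to 4. The WT pools lay close together, and Dux KO replicates 1 and 4 lay above them. The log2 fold change was 0.11 (95% interval -0.20 to 0.42, limma adjusted p = 0.558). Its counts were 168 to 204 reads in Dux KO pools and 135 to 169 in WT pools. Gm5648, a gene not in the table used, matches the Uhrf1 transcript over 1590 bases at 98.3% identity.

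ZFP57 is a zinc finger protein that binds a methylated motif at imprinting control regions, and it was the second most abundant of the 9 in RNA. Zfp57 (chromosome 17 at 37001163 to 37010635, plus strand) was at 44.9, 49.7, 58.1 and 37.6 FPKM in Dux KO pools 1 to 4, and 41.7, 60.03, 66.9 and 49.7 FPKM in WT pools 1 to 4. The ranges overlapped widely, with the highest value in replicate 3 of each group. Means were 47.6 ± 8.58 FPKM in Dux KO pools and 54.6 ± 11.1 FPKM in WT pools (log2 fold change -0.19, 95% interval -0.60 to 0.22, limma adjusted p = 0.439).

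TRIM28, also called KAP1, is the corepressor that ZFP57 recruits and that silences retrotransposons. Trim28 (chromosome 7 at 12999114 to 13031035, plus strand) was at 18.6, 14.2, 16.3 and 24.2 FPKM in Dux KO pools 1 to 4, and 21.2, 22.1, 20.5 and 29.7 FPKM in WT pools 1 to 4. Dux KO replicates 1, 2 and 3 lay below all WT pools, while replicate 4 of each group was the highest. Means were 18.3 ± 4.29 FPKM in Dux KO pools and 23.4 ± 4.27 FPKM in WT pools (log2 fold change -0.35, 95% interval -0.76 to 0.064, limma adjusted p = 0.166). The coefficient of variation was 23.4% in Dux KO pools and 18.2% in WT pools for Trim28, and 18.0% and 20.4% for Zfp57.

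**Figure D2:**
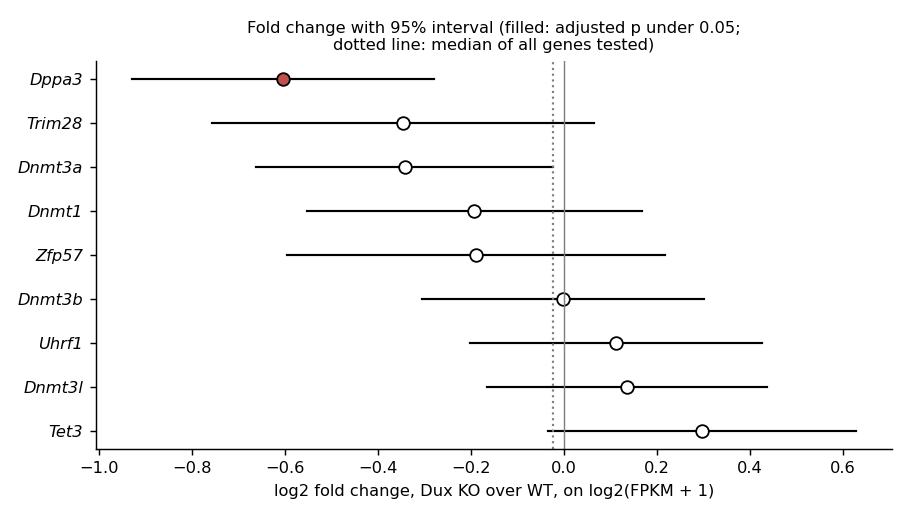
Log2 fold change of each gene, Dux KO over WT, on log2(FPKM + 1) (horizontal axis), with its 95% interval from limma. The filled point, Dppa3 at -0.61, is the only one with an adjusted p under 0.05, and the intervals of 7 genes include 0.

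Set in order of level per length, Dppa3 exceeded the next gene, Zfp57, 72.4-fold in Dux KO pools and 96.1-fold in WT pools. Dnmt3l and Trim28 followed in both groups, with pools apart in Dux KO (28.2 and 18.3 FPKM) and overlapping in WT (25.6 and 23.4 FPKM). Dnmt1, Dnmt3a, Tet3 and Uhrf1 lay between 3.03 and 4.11 FPKM in Dux KO means, each overlapping its neighbour in that order. In WT means they lay between 2.63 and 5.40 FPKM, and there Dnmt3a and Dnmt1 overlapped, as did Uhrf1 and Tet3, with a gap between these pairs. Dnmt3b was last in both groups, and its pools lay below those of the next gene.

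Ratios of genes within a pool do not depend on how libraries were scaled, and the pairs below were picked after their values were seen, so they carry no test. Per 1000 FPKM of Dppa3, Tet3 was at 1.16, 1.03, 0.753 and 1.14 FPKM in Dux KO pools 1 to 4, and 0.439, 0.506, 0.556 and 0.519 in WT pools 1 to 4. The mean of this ratio was 2.02 times as high in Dux KO pools, with no overlap. Dnmt3l per FPKM of Dnmt3a was 7.72, 8.41, 5.56 and 6.54 in Dux KO pools 1 to 4, and 5.55, 4.44, 4.47 and 4.57 in WT pools 1 to 4. The lowest Dux KO pool and the highest WT pool differed by little in it. Tet3 per FPKM of Dnmt3a also stood apart, at 0.876 ± 0.210 in Dux KO pools and 0.489 ± 0.0410 in WT pools (SD, n = 4 each). Of the 8 ratios computed, the other 5 overlapped, among them Uhrf1 to Dnmt1 (0.739 ± 0.0867 in Dux KO pools and 0.571 ± 0.110 in WT pools) and Zfp57 to Trim28 (2.76 ± 0.960 and 2.40 ± 0.720).

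**Figure D3:**
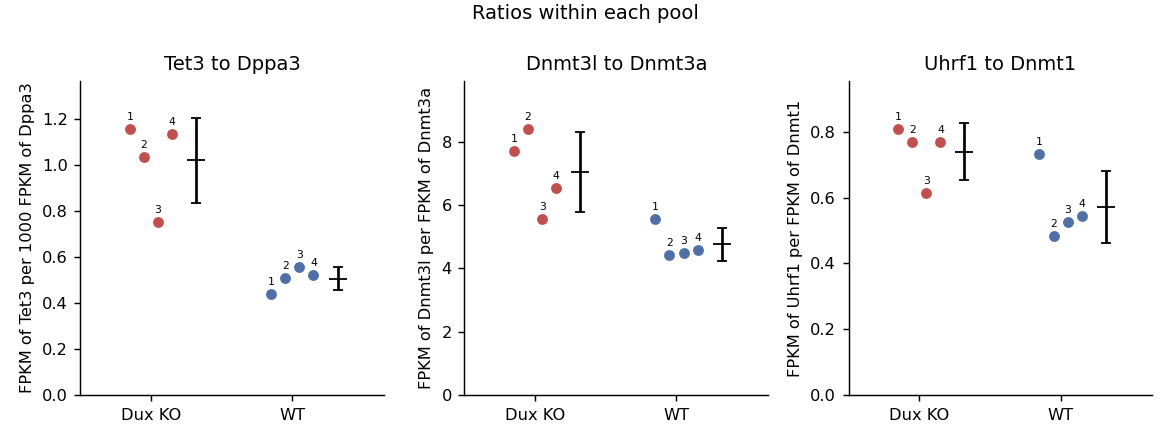
Ratio of 2 genes in each pool (vertical axes, FPKM over FPKM, the first panel per 1000 FPKM of Dppa3), for the 4 Dux KO pools (red, left) and 4 WT pools (blue, right), with mean and SD in black. Tet3 to Dppa3 lies between 0.753 and 1.16 in Dux KO pools and at most 0.556 in WT pools, and Uhrf1 to Dnmt1 overlaps.

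Dnmt3c, a rodent-specific relative of Dnmt3b that methylates young retrotransposons in the male germ line, was added once the values were known. Its level was 4.12, 4.21, 3.58 and 4.29 FPKM in Dux KO pools 1 to 4, and 3.00, 3.43, 2.02 and 2.87 FPKM in WT pools 1 to 4, higher than Dnmt3b in every pool. Its groups did not overlap, with a log2 fold change of 0.41 (limma adjusted p = 0.0720), which did not pass.

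Over the 8 pools, the genes most like Dppa3 in log2(FPKM + 1) were Rbx1, Frg2f1 and Mesd (Pearson r of 0.986, 0.979 and 0.976). For Dnmt3a they were Armc7, Ammecr1l and Rabgef1 (0.993, 0.993 and 0.991), and for Tet3 Uvrag, Ralgds and Numa1 (0.981, 0.973 and 0.969). The top 3 were taken among genes averaging 1 FPKM or more, and the difference between the groups enters each value. For Dnmt3b and Zfp57 the closest genes were Ddhd2 (0.908) and Sp2 (0.948).

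Related genes were taken from lists of textbook roles, and each list's share of calls stands beside the 33.6% of all genes tested that were called (15.5% higher and 18.1% lower). Calls over all genes also became fewer at the settings named below. They numbered 1933 higher and 2249 lower, and 1850 and 1904 with quantile normalization. Leaving out 1 pool at a time gave 1179 to 1912 higher and 1348 to 2133 lower, fewest without WT replicate 4. Of 15 tested genes of demethylation and base excision repair, 3 rose, 3 fell and 9 did not pass (40% called, median log2 fold change -0.25). Polb, the repair polymerase, and Smug1, a uracil glycosylase, rose with log2 fold changes of 0.43 and 0.52, and Tet2 with 0.30. Parp1, Gadd45a and Neil2 fell, with -0.86, -0.84 and -0.51. Pools of the groups overlapped for Smug1 and Parp1. Without Dux KO replicate 1 or 2, or WT replicate 2 or 4, no gene of the list was called higher by limma, and 1 was without Dux KO replicate 3 or 4, without WT replicate 3, or with quantile normalization. Among those lower, 1 was called without Dux KO replicate 4 or WT replicate 2 or 4.

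Of 14 genes listed as maintenance cofactors 1 rose and 1 fell (14.3% called, median -0.081). The list is wider than its name and also holds histone-modifying enzymes, such as Setd2 and Kdm1b. Setd2, the H3K36 trimethylase whose mark recruits DNMT3A in oocytes, fell to 41.8 ± 4.90 FPKM in Dux KO pools, against 68.0 ± 7.75 FPKM in WT pools (log2 fold change -0.69, limma adjusted p = 0.00736). Cdca7l rose with 0.77, a call lost without Dux KO replicate 1 or WT replicate 4, and without WT replicate 2 the list had 2 genes lower. Of 7 methyl-CpG readers only Mbd2 passed, at 4.42 ± 1.11 FPKM in Dux KO pools and 1.83 ± 0.481 FPKM in WT pools (log2 fold change 0.93, limma adjusted p = 0.00608).

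Partners of TRIM28 and of heterochromatin went both ways, with 3 higher, 6 lower and 11 not passing of 20 (45.0% called, median -0.18). Cbx1, which encodes the heterochromatin protein HP1 beta, was at 24.2 ± 5.69 FPKM in Dux KO pools and 10.4 ± 1.93 FPKM in WT pools (log2 fold change 1.13, limma adjusted p = 0.00353). Suv39h2, an H3K9 methyltransferase, rose with 0.50. Smarcad1, Zfp809, a zinc finger protein that targets TRIM28 to retroviral DNA, and Mta2 fell with -0.90, -0.90 and -0.73. Setdb1, the H3K9 methyltransferase that TRIM28 recruits, had a log2 fold change of -0.17 and did not pass (limma adjusted p = 0.532). Zfp445, a further imprint protector, fell with -0.54. Without Dux KO replicate 1 or WT replicate 4 the list had 2 genes lower.

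Genes of the S-adenosylmethionine and folate cycle, the source of methyl groups, rose in 3 and fell in 5 of 19 tested (42.1% called, median -0.13). The serine hydroxymethyltransferases went opposite ways: Shmt2, the mitochondrial form, was at 18.2 ± 6.92 FPKM in Dux KO pools and 6.60 ± 1.12 FPKM in WT pools, and Shmt1, the cytosolic form, at 23.7 ± 4.04 and 49.8 ± 6.84 FPKM (log2 fold changes 1.29 and -1.05). Mthfd2 and Gnmt rose with 0.64 and 0.55, and Bhmt2 and Tyms fell with -0.90 and -0.75. Pools of the groups overlapped for Gnmt and Tyms. Leaving out WT replicate 4 left 1 higher and 2 lower, leaving out WT replicate 3 left 1 higher and 4 lower, and leaving out Dux KO replicate 1 or 2 left 1 higher and 3 lower.

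ZFP57 and TRIM28 guard many imprinted loci, while others on the list, such as Jade1, are imprinted through maternal H3K27me3. Of 52 listed 31 were in the table and 24 were tested, of which 5 rose, 3 fell and 16 did not pass (median 0.22). The share called, 33.3%, was about that of all genes. Nnat, Peg3 and Commd1 rose with log2 fold changes of 0.70, 0.46 and 0.45 from levels under 2 FPKM in WT pools, and Ube3a, Usp29 and Jade1 fell with -0.70, -0.69 and -0.52. The count of those higher was 1 without Dux KO replicate 2 or without WT replicate 1, 3 or 4, was 2 without Dux KO replicate 1, 3 without WT replicate 2, and 2 with quantile normalization. The count of those lower was 1 without WT replicate 4. The table gives no allele, so loss of imprinting was not measured.

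Germline genes that promoter methylation silences in somatic cells, several of which are also oocyte transcripts, rose in 6 and fell in 2 of 13 tested (median 0.39). That is 46.2% higher and 61.5% called, beside 15.5% and 33.6% of all genes. Dazl, an RNA-binding protein of germ cells, was at 96.1 ± 16.7 FPKM in Dux KO pools and 32.5 ± 4.61 FPKM in WT pools (log2 fold change 1.53, limma adjusted p = 0.000994). Tex101 was at 60.9 ± 12.6 FPKM in Dux KO pools and 21.4 ± 4.10 FPKM in WT pools. Taf7l rose with 1.60 but overlapped between the groups, being at 0.828 FPKM in Dux KO replicate 1 and up to 1.85 FPKM in WT pools. Stk31 and Rpl10l fell with -0.79 and -0.63. Oocyte markers moved both ways in the same pools, with Bmp15 and Oosp1 higher (1.34 and 0.97) and Zp3 and Padi6 lower (-1.13 and -0.75), and their part in these counts was not tested.

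**Figure D4:**
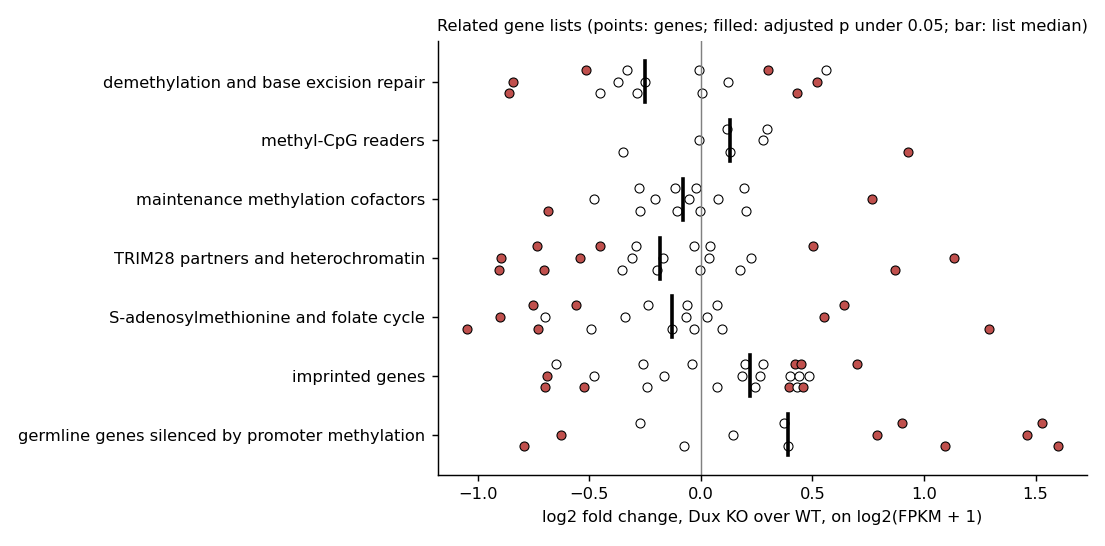
Log2 fold change, Dux KO over WT (horizontal axis), of every tested gene in 7 lists of related genes, filled where the adjusted p was under 0.05, with a bar at each list's median. Lists hold genes on both sides of 0, and medians lie between -0.25 and 0.39.

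Retrotransposons silenced through TRIM28 and DNA methylation were read from the deposited repeat table in FPM, fragments scaled by a size factor for each library. Summed over all repeats, FPM came to 834571 to 951000 in Dux KO pools and 1.019e+06 to 1.183e+06 in WT pools, without overlap. The cause of this difference, and its part in the values below, was not tested. Of 8 names fixed 7 matched, and by limma none was called (12.2% of 1267 repeats tested were), at an unadjusted p under 0.05 IAPLTR2_Mm alone. IAPEz-int, the internal part of an IAP family, was at 514, 671, 513 and 591 FPM in Dux KO pools 1 to 4, and 587, 564, 532 and 620 FPM in WT pools 1 to 4. The log2 fold change of IAPEz-int was -0.015 (95% interval -0.27 to 0.24). IAPLTR2_Mm, an IAP long terminal repeat, was lower in all Dux KO pools (115 to 147 FPM) than in any WT pool (150.3 to 248 FPM), with a log2 fold change of -0.57 (limma adjusted p = 0.0532), and passed by edgeR on recovered reads (adjusted p = 0.0245), a test added after seeing the data. MMERVK10C-int was at 1021 ± 103 FPM in Dux KO pools and 1095 ± 180 FPM in WT pools (SD, n = 4 each), overlapping.

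**Figure D5:**
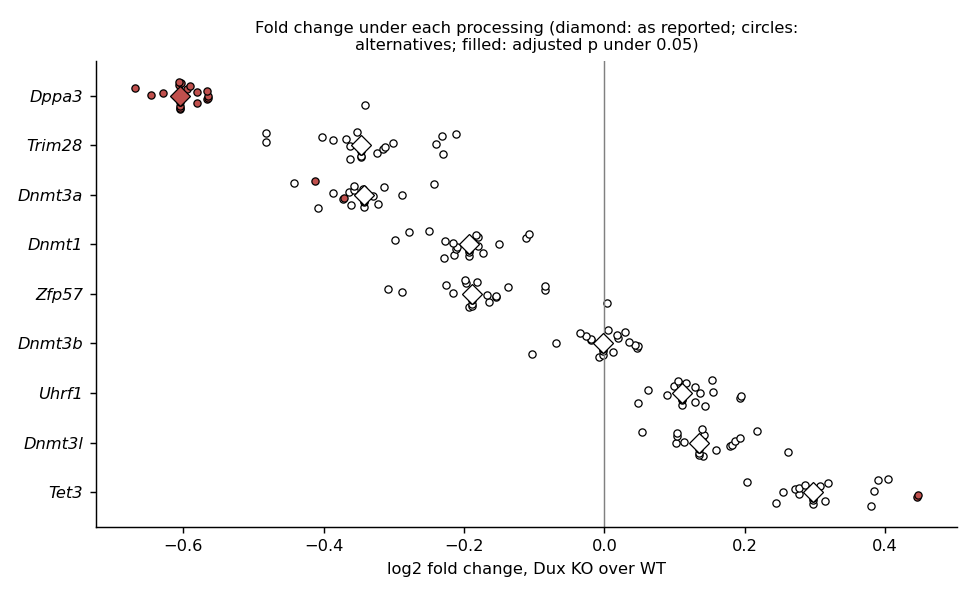
Log2 fold change of each gene, Dux KO over WT (horizontal axis), as reported (diamonds) and under each alternative processing (circles), filled where the adjusted p was under 0.05. Dppa3 stays between -0.67 and -0.34, Dnmt3a is filled in 2 alternatives and Tet3 in 2, and Dnmt3b lies on both sides of 0.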

How the data were processed

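RNA-seq of 8 pools of 2-cell embryos was analysed from the tables the authors deposited. Reads were trimmed and aligned with Trimmomatic 0.32, STAR 2.6.1a and SAMtools 1.7 on GRCm38 (mm10), per the submitters' processing notes. No counter, annotation, strand setting or test of the authors is named there. Libraries were made with a low-input cDNA kit and Nextera XT, per the labels' protocols. Gene values are FPKM and repeat values FPM, a signal scaled by size factors, as the deposited headers and steps in the values show. The deposited tables also give a log2 fold change and an adjusted p-value of the authors. The lowest mean count of a gene in the table is 25.0, and 0 numeric columns were left unmapped.

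The step sizes of low values gave back whole read numbers (100% whole within 0.05). Main tests used limma 3.58.1 in R 4.3.3 with trend and robust moderation on log2(FPKM + 1), with repeats averaging 1 FPM or more treated alike in FPM, Benjamini-Hochberg adjusted over all genes or repeats, two-sided. Such folds understate changes of low genes. edgeR 4.0.16 (quasi-likelihood) and DESeq2 1.42.0 ran on recovered reads. Each tool was tested on data simulated once, with the same spread for all genes and 200 of 12437 genes changed. Of the calls, 5.88% by limma, 5.45% by edgeR and 10.0% by DESeq2 were false. Far more genes were called in the real data, so this order of the tools need not hold there. Coordinates are from GENCODE M21.

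The members and lists were chosen with earlier results of these data known. Named genes are the members, up to 3 called in each direction per list by size of change (the higher group averaging 1 FPKM or more), and the 3 genes most like each member; others were chosen after their values were seen. A gene that this rule names is not reported here. Alternatives were another pseudocount, filter, scaling, test, a replicate block, and leaving out libraries.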

Additional observations from a re-analysis of the deposited data

Results flagged for a closer look

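A gap between 1 pool and the rest of its group, as a share of the group's range, above Dixon's critical value was found 5 times in 158 groups of 4 pools examined (79 levels, ratios, read shares and marker sums), and chance gives about 1 in 20. No level of the 9 members was among them. Polb had a gap share of 0.848 in Dux KO pools, from 26.3 FPKM in replicate 2 beside 23.6 to 24.0 FPKM in the others. Shmt2 had 0.879 in Dux KO pools, from 28.5 FPKM in replicate 2 beside 14.2 to 15.9 FPKM. Oosp1 had 0.836 in WT pools, from 728 FPKM in replicate 4 beside 1176 to 1264 FPKM. Dppa3-ps had 0.871 in WT pools, from 20.6 FPKM in replicate 3 beside 31.0 to 32.5 FPKM. The ratio of Dnmt3l to Dnmt3a had 0.884 in WT pools, from 5.55 in replicate 1 beside 4.44 to 4.57.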

How the results depend on the processing

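Dppa3 kept its direction in all 20 alternatives and its call in 19, with log2 fold changes of -0.67 to -0.34, and lost the call only with quantile normalization (-0.34); the cause was not tested. Leaving out 1 pool at a time gave -0.67 to -0.56 (limma adjusted p of 0.00737 to 0.0444). Dnmt3a passed by DESeq2 (-0.37) and in the deposited values (-0.41), and Tet3 by edgeR (0.45) and DESeq2 (0.45). Members lower therefore numbered 0 with quantile normalization and 2 by DESeq2 and in the deposited values, and members higher 1 by edgeR and by DESeq2. Of all genes, 15.3% were called lower with quantile normalization, 19.8% by DESeq2 and 18.6% in the deposited values. Those called higher were 17.4% by edgeR and 19.7% by DESeq2. Dnmt3b turned positive with median-of-ratios scaling (0.013), by edgeR (0.046) and DESeq2 (0.048), without both Dux KO libraries 3 and 4 (0.030) and in the deposited values (0.0048), with -0.070 to 0.044 over single left-out pools, and Zfp57 with quantile normalization (0.0035). Genes called higher numbered 1933 (353 without both Dux KO libraries 1 and 2, 1179 to 1912 over single left-out pools). Genes called lower numbered 2249 (447 without both Dux KO libraries 1 and 2, 1348 to 2133 over single pools). At a mean of at least 5 FPKM, 1032 genes were called higher and 1880 lower. Members with a mean under 5 FPKM have no value at that filter. Of 7 repeats 1 was called with a replicate block and by edgeR, a test chosen after seeing the data, and 0 to 1 over single left-out pools. Of all repeats tested 12.2% were called in the main limma fit, and the share at these other settings was not worked out. Reversals among genes and repeats that did not pass were Wfdc2 without both Dux KO libraries 1 and 2 (-0.35), Cd52 with quantile normalization (-0.027), without both Dux KO libraries 3 and 4 (-0.30) and over single pools (-0.24 to 0.24), and IAPEz-int by edgeR (0.0085). Over single left-out pools IAPEz-int ran from -0.094 to 0.034, IAPLTR1_Mm from -0.16 to 0.078, MMERVK10C-int from -0.17 to 0.00022 and RLTRETN_Mm from -0.041 to 0.15.

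The replicate numbers share no stated source, and same-numbered pools did not deviate together in every pair (r of -0.115, 0.328, -0.0554 and 0.302 for numbers 1 to 4). Pairs of different number had r of -0.404 to 0.271, so the same-numbered pairs 2 and 4 lay above all of them. With the replicate block 2141 genes were called higher and 2591 lower, and Dppa3 stood at -0.61 (limma adjusted p = 0.0104).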
